A study of Mus musculus with 11 samples.

Results

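Of the 26921 genes in the count tables of mouse cerebral cortex, 7 are described here: Lcn2, Lrg1, Serpina3n, Saa3, Hp, Ctla2a and Ctla2b. They were read by symbol from all 11 libraries, and each of the 7 was found. They were chosen by their measured levels, which were higher in endothelial cells (ECs) of mice with experimental autoimmune encephalomyelitis (EAE) than of untreated adults, so their EAE and adult values are given as a description, with no test. Tests are given for ages and for positions along the vessel tree. The adult ECs, the lower group of that choice, are also the reference of the age tests in ECs, which favours higher values at the other ages.

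Non-neuronal cells of the cortex were measured by droplet single-cell RNA sequencing on the 10x Chromium system, in which captured transcripts are tagged and counted by unique molecular identifiers (UMIs). All mice were C57BL/6. The 4 juvenile libraries were from postnatal day 10 (P10) and the 3 adult libraries from 7–11 weeks, each made from pooled tissue of 6 mice. The 2 aged libraries (18 months) and the 2 EAE libraries (7–11 weeks) were each made from pooled tissue of 3 mice. EAE was induced in female mice with the myelin peptide MOG35–55 in Complete Freund's Adjuvant followed by pertussis toxin, and tissue was taken at the disease peak. The labels do not give the sex of the untreated groups, and the methods of the study name females as the default. The adult, aged and juvenile mice were untreated, so the disease cannot be told apart from the adjuvant and the toxin. Vessels were rinsed by perfusion with saline before all preparations, and myelin was removed.

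The acute-phase response is the change in secreted proteins that inflammatory cytokines such as IL-6, IL-1 and TNF set off, best known from the liver. The factors STAT3, C/EBP and NF-κB carry those signals to acute-phase genes. Brain ECs form the blood-brain barrier and are exposed to cytokines from the blood as well as from the tissue, and EAE is a model of multiple sclerosis in which leukocytes enter the central nervous system.

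The members fall into 3 roles. Lcn2 encodes lipocalin-2, which binds bacterial siderophores and so withholds iron; Lrg1 encodes a leucine-rich secreted glycoprotein that modulates TGF-β signalling in vessels; Saa3 encodes a serum amyloid A protein; and Hp encodes haptoglobin, which captures free haemoglobin. Serpina3n encodes a secreted serine protease inhibitor. Ctla2a and Ctla2b are neighbouring genes for small proteins that resemble the propeptide of cathepsins, and CTLA-2α inhibits cathepsin L. In the annotation of the mouse build GRCm38, Lcn2 lies on the minus strand of chromosome 2 from 32384633 to 32388252, Lrg1 on chromosome 17 from 56119678 to 56122001, Serpina3n on chromosome 12 from 104406729 to 104414329, Saa3 on chromosome 7 from 46711998 to 46715700 and Hp on chromosome 8 from 109575128 to 109579172. Ctla2a, from 60934155 to 60936625, and Ctla2b, from 60895350 to 60897447, both lie on the minus strand of chromosome 13. Of all runs of 98 bases in the longest coding transcript of Ctla2b, 96.6% also occur in transcripts of other genes (Gm49391, Gm49392 or Ctla2a). Only 3.01% of them occur in a transcript of Ctla2a. The share with any other gene was 19.8% for Ctla2a, 0.305% for Serpina3n, 0.0476% for Saa3 and 0% for Lcn2, Lrg1 and Hp. Counts of Ctla2b are therefore uncertain, since shared reads may have been split or dropped.

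RefSeq promoter sequences (GRCm38.p6) were matched for 6 of the 7 members. They were searched on both strands for the letters TTGCNNAA (C/EBP), TTCNNNGAA (STAT), TGANTCA (AP-1) and the kappaB motif, over the 250 bases before the RefSeq start. The window of Lcn2 lies inside the gene as the annotation above places it, and those of Lrg1 and Saa3 overlap theirs at the 5′ end, since the starts differ between the annotations. Windows of 4 genes are shown because they hold a match, written 5′ to 3′ on the strand of the gene with the match in capitals: Lcn2 (chr2:32387740-32387989, minus strand), Saa3 (chr7:46715677-46715926, minus strand), the upstream of 2 starts of Ctla2a (chr13:60936626-60936875, minus strand) and Ctla2b (chr13:60897448-60897697, minus strand).
Lcn2: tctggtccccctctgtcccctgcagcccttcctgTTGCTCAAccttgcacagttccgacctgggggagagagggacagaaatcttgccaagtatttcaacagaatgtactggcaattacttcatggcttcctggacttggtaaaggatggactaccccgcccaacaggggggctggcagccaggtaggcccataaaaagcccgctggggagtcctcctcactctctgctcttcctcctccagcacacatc
Saa3: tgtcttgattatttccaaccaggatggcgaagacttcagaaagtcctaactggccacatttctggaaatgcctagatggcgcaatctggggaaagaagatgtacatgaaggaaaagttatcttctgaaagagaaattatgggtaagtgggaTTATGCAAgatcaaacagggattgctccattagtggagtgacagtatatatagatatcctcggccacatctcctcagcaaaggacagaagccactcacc
Ctla2a: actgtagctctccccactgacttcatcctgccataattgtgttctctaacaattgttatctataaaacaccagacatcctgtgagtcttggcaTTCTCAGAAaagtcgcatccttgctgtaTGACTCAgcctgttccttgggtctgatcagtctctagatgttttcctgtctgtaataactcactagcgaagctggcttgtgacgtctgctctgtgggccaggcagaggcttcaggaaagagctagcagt
Ctla2b: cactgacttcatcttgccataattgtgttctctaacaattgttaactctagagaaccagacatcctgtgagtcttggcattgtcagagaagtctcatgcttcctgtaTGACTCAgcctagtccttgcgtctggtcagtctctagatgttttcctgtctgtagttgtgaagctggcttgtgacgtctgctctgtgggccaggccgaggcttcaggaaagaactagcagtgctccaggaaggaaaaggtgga
The Lcn2 window holds a C/EBP match (TTGCTCAA) 216 to 209 bases before the start. The Saa3 window holds a C/EBP match on the opposite strand (TTATGCAA) 99 to 92 bases before it. Both Ctla2 windows hold the same AP-1 letters (TGACTCA), and that of Ctla2a also holds a STAT match (TTCTCAGAA). Aligned to each other, the Ctla2a and Ctla2b windows shown are 77.01% identical (211 of 274 aligned positions). The windows of Lrg1 (chr17:56121947-56122196, minus strand) and Serpina3n (chr12:104406458-104406707, plus strand) hold none of the 4 motifs. Of all 32851 RefSeq promoters of this length, 9.56% hold a C/EBP match, 7.02% a STAT match, 6.75% an AP-1 match and 7.25% a kappaB match, so a match in a single window is common. A match is a description of letters and not a measured binding site.

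The libraries held between 15755504 and 34326349 UMIs, and 50625 of 54646 barcodes passed the filters on cells. Clusters were named from markers, so that EC below stands for EC-like cells and the same holds for all other types. ECs numbered 5037 in adult, 5779 in aged, 7142 in EAE and 3136 in juvenile libraries. Levels are given per cell type and library as CPM, the UMIs of a gene per 1000000 UMIs of the cells of that type. The library Adult 1 stood apart: in ECs, its mean squared standardized difference over genes was 9.03 from Adult 2 and 9.61 from Adult 3, against 1.25 between those 2 and about 1 where only sampling noise is present. The P10 libraries also split. In ECs, Juvenile 1 and 2 differed from Juvenile 3 and 4 by 5.64 to 6.45, against 1.06 and 1.21 within these pairs. In microglia this split was at 7.13 to 7.69, above the 3.94 and 4.06 of Adult 1. Replicates were libraries of pooled tissue, and p-values measure only the spread between them, which may be technical. Fewer transcripts in a pooled type can mean fewer expressing cells or less RNA per cell, and levels alone do not separate these.

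Lcn2 was low in every adult cell type with at least 10 cells in a library and was high in neutrophils, ECs and fibroblasts of EAE. In adult ECs it was at 2.17, 12.6 and 8.46 CPM in the 3 libraries, from 8, 95 and 64 UMIs, and in EAE ECs at 1146 and 1095 CPM. The groups did not overlap, and the means differed 145-fold. Neutrophils, which store the protein in their granules, held the highest level in EAE (5141 and 7216 CPM), but they were only 171 and 163 cells. ECs, with 43.7% and 43.3% of the cells, held 75.5% and 71.1% of all Lcn2 UMIs of the EAE libraries, and neutrophils 11.8% and 18.4%. Fibroblasts of EAE were at 676 and 2242 CPM, values that overlap those of ECs, in 38 cells. Astrocytes were at 470 and 117 CPM in 74 cells, with 7 of the 11 UMIs of EAE 2 in a single cell that held at least 20 UMIs of S100a8 and S100a9, so their order among the next types (macrophages at 127, ependymal cells at 126 and microglia at 104 CPM on average) was not fixed within the spread between libraries. Ependymal cells were at 242 and 9.10 CPM, from 29 and 1 UMIs. In adult cortex, neutrophils held 69.6%, 42.05% and 27.8% of the Lcn2 UMIs and ECs 17.4%, 54.0% and 59.3%. Mural cells, choroid plexus, perivascular macrophages (PVMs) and microglia averaged at most 1.54 CPM. The adult neutrophils were only 3 to 5 cells per library, with 32, 74 and 30 UMIs.

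Lrg1 had a similar distribution at lower levels. Adult ECs were at 15.2, 12.5 and 19.7 CPM and EAE ECs at 521 and 484 CPM, 31.8-fold apart and without overlap. Neutrophils of EAE were higher still (1661 and 1745 CPM), followed after ECs by macrophages (77.04 and 80.1 CPM). Mural cells (71.9 and 22.5 CPM) overlapped the types ranked below them. ECs held 79.7% and 77.9% of the Lrg1 UMIs in EAE. In adult cortex ECs ranked first among types with at least 10 cells, and no other such type with more than 1 library exceeded 2.696 CPM on average. The few adult neutrophils held 3 Lrg1 UMIs in each library.

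Serpina3n was close to absent in untreated adults and was highest in 3 kinds of EAE cells, among types with at least 10 cells. No adult cell type held more than 2 UMIs. Adult ECs held 2 UMIs in all, both in Adult 1, against 1271 and 1000 UMIs in EAE ECs (114 and 92.2 CPM). The ratio of the pooled levels was 971, with a 95% counting interval of 269 to 8025. Ependymal cells (225 and 364 CPM) and astrocytes (106 and 234 CPM) of EAE were also high, in 59 and 74 cells, and the ranges of astrocytes overlapped both of the others. The other types with at least 10 cells averaged at most 15.1 CPM. Oligodendrocytes, under that limit with 5 and 3 cells in EAE, held 5 UMIs in EAE 1. Because ECs were so many, they held 88.8% and 85.5% of the Serpina3n UMIs in EAE. Neutrophils of EAE were at 2.59 and 7.03 CPM, from 1 and 3 UMIs.

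Saa3 and Hp were carried mainly by infiltrating myeloid cells. Saa3 was at 1883 and 1981 CPM in macrophages of EAE, at 400 and 269 CPM in PVMs and at 285 and 356 CPM in neutrophils. Macrophages held 89.6% and 91.2% of all Saa3 UMIs. EAE ECs were at 22.1 and 19.1 CPM, overlapping T cells (20.4 and 16.3 CPM), B cells (38.2 and 19.1 CPM) and choroid plexus (20.1 and 15.9 CPM). No Saa3 UMI was found in adult ECs, so the level of EAE ECs was at least 129-fold higher than the 3 UMIs that a count of 0 over the group allows. T cells of adults likewise held none.

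Hp was at 3296 and 3345 CPM in EAE neutrophils and at 662 and 627 CPM in macrophages. Macrophages held 69.3% and 65.2% of its UMIs and neutrophils 22.7% and 27.3%. EAE ECs were at 9.81 and 9.13 CPM, close to T cells (8.51 and 8.69 CPM), B cells and choroid plexus. Adult ECs were at 0, 0.530 and 0.529 CPM, a 26.8-fold difference of the means. In adult cortex, Hp was found in cells named monocytes and macrophages, which may include dendritic cells, at 82.2 ± 16.2 CPM (SD, n = 3). This was above all other types with at least 10 cells. The cells named monocytes and macrophages held 13.2%, 25.5% and 57.9% of the adult Hp UMIs. The few adult neutrophils, 3 to 5 cells per library, held 52.6%, 60.8% and 23.7%, from 20, 31 and 9 UMIs.

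The Ctla2 genes differed from the other members in being abundant in ECs of every group. Ctla2a was at 989, 1044 and 1037 CPM in adult ECs and at 5877 and 5672 CPM in EAE ECs, 5.64-fold higher and without overlap. ECs held 88.4% and 89.0% of its UMIs in EAE. T cells followed in adults (457 ± 195 CPM, SD, n = 3) and were at 856 and 922 CPM in EAE. Mural cells of EAE (1540 and 748 CPM) and neutrophils (1104 and 450 CPM) overlapped T cells. Cldn5, a transcript of ECs, was at 1252 and 1714 CPM in these mural cells and at 684 and 482 CPM in these neutrophils. Per 100 UMIs of Cldn5, Ctla2a stood at 123 and 43.6 UMIs in mural cells and 161 and 93.2 in neutrophils. EAE ECs held 83.7 and 81.7, and T cells 270 and 227. The origin of the Ctla2a UMIs in mural cells and neutrophils was not tested. Ctla2b was lower throughout, with 81.2, 62.4 and 61.5 CPM in adult ECs and 182 and 187 CPM in EAE ECs (2.69-fold). In adults its highest level was in PVMs (108 ± 8.40 CPM, SD, n = 3) and not in ECs, whereas in EAE the EC values lay above those of PVMs (161 and 161 CPM).

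**Figure D1:**
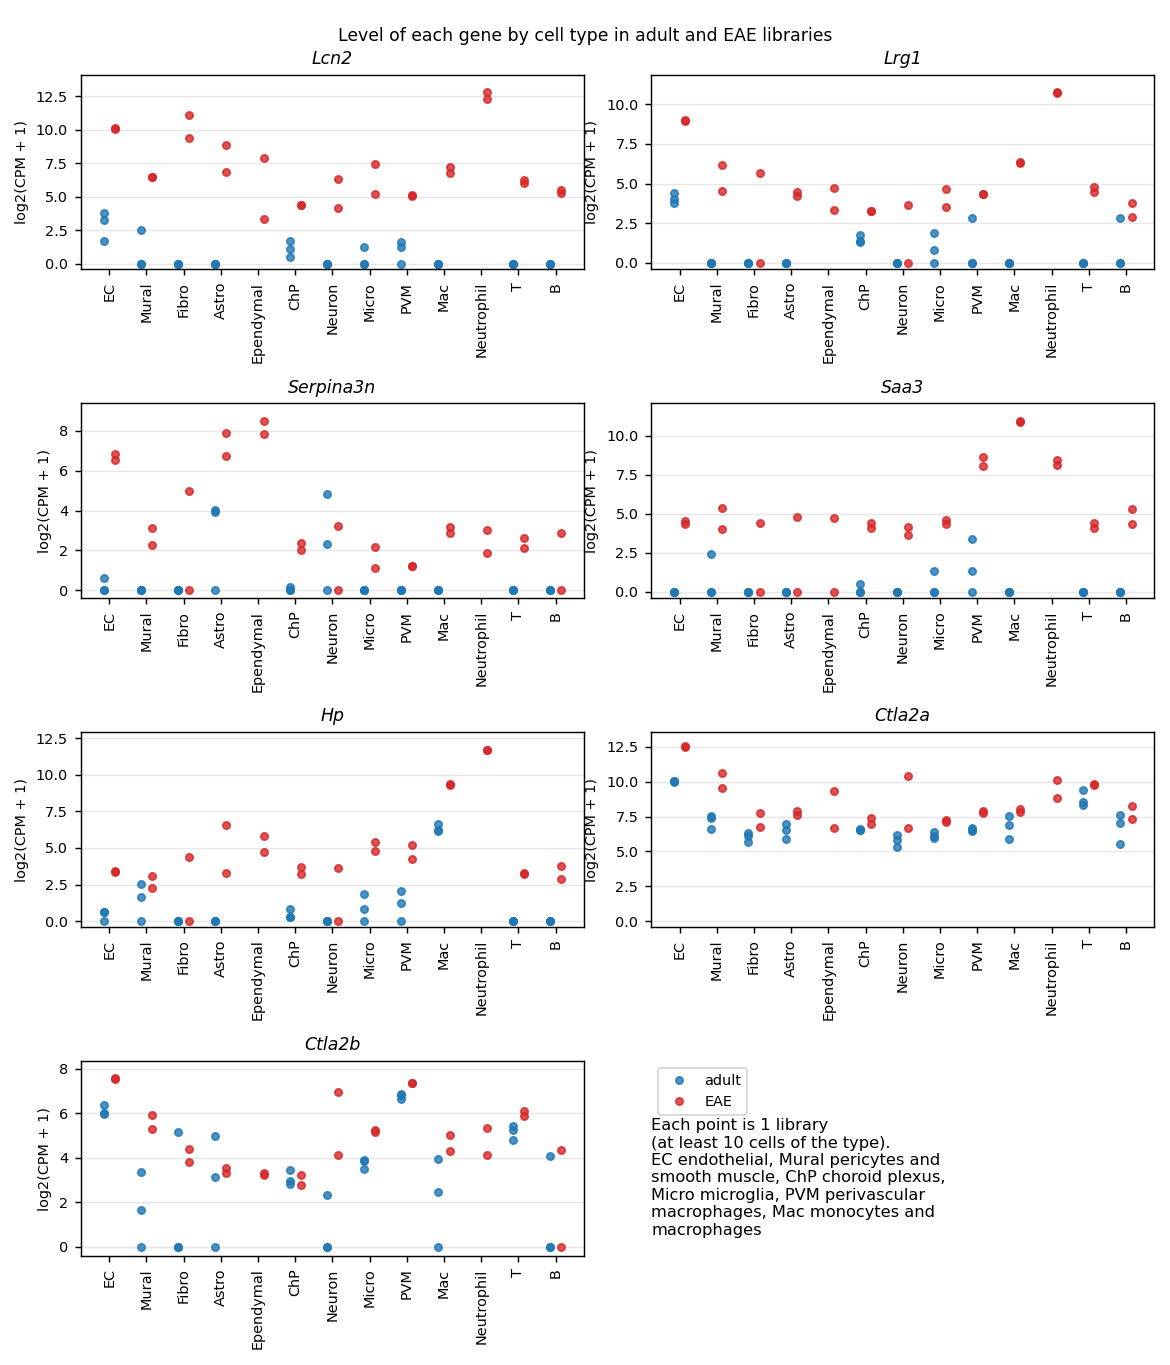
Each panel shows 1 member, with cell types on the x axis and the level as log2(CPM + 1) on the y axis; points are libraries, blue for adult and red for EAE. Lcn2 and Lrg1 peak in neutrophils of EAE and are next high in ECs of EAE, which fibroblasts overlap for Lcn2 only. Saa3 and Hp peak in macrophages or neutrophils with ECs at the level of T and B cells, and Ctla2a peaks in ECs in both groups.

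To compare single cells of unequal depth, every cell was thinned at random to 1500 UMIs and shallower cells were left out, which removed 13.04% and 12.8% of EAE ECs and 4.72% to 7.35% of adult ECs. At this depth 29.3% and 28.9% of EAE ECs held an Lcn2 UMI (95% exact Clopper-Pearson intervals 27.7 to 30.9% and 27.3 to 30.5%, which cover counting error only), against 0.126%, 0.981% and 0.696% of adult ECs. T cells, which should lack the gene, gave 4.59% and 4.45% in EAE. Median UMIs per cell before thinning were 2333.5 and 2394 in EAE ECs and 3147 and 3187 in T cells. Lrg1 was found in 18.3% and 16.4% of EAE ECs against 2.11% and 1.96% of T cells, and Serpina3n in 4.997% and 4.74% against 0.496% and 0.262%. These 3 genes were thus above the level of T cells in single ECs. For Saa3 the shares were 3.54% and 2.52% of ECs and 3.47% and 2.75% of T cells, and for Hp 1.52% and 1.44% of ECs and 1.36% and 1.047% of T cells, so neither gene was found in a share of ECs above that of T cells beyond counting error, and these shares are not read as expression by ECs. Ctla2a was found in 84.3% and 84.7% of EAE ECs and in 63.9% to 65.7% of adult ECs.

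Neutrophils were more numerous in EAE and aged than in adult libraries, and transcripts that are most abundant in neutrophils were also found in other cell types. At least 1 UMI of S100a8 or S100a9 was found in 34.0% and 37.0% of EAE ECs, in 35.5% and 43.2% of aged ECs and in 9.57%, 11.5% and 11.1% of adult ECs (unthinned). The origin of these UMIs was not tested. The UMIs of the members were set against those of these transcripts. EAE neutrophils held 3.19 and 3.51 Lcn2 UMIs per 100 UMIs of S100a8 and S100a9, EAE ECs 748 and 574, and EAE T cells 47.8 and 57.8. For Hp, EAE ECs (6.40 and 4.78) and T cells (6.36 and 6.60) held similar numbers. EAE ECs without any S100a8 or S100a9 UMI were at 837 and 801 CPM of Lcn2, 362 and 355 CPM of Lrg1 and 58.4 and 55.7 CPM of Serpina3n, lower than in all ECs and far above the adult levels. Without these cells, Saa3 (22.3 and 18.8 CPM) and Hp (10.51 and 9.26 CPM) hardly moved.

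**Figure D2:**
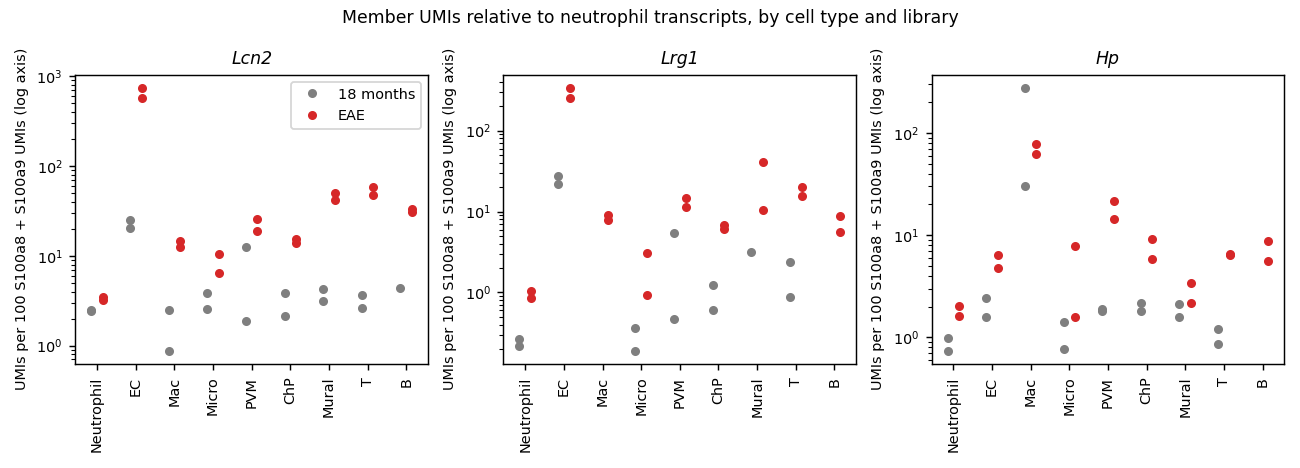
The y axis, on a log scale, gives the UMIs of Lcn2, Lrg1 or Hp per 100 UMIs of S100a8 and S100a9, by cell type on the x axis; points are aged (grey) and EAE (red) libraries, and types with no UMI of the gene are left out. For Lcn2 the ECs of EAE, at 748 and 574, lie far above the neutrophils at 3.19 and 3.51.

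In microglia the summed level of Lcn2 rested on few cells. In EAE 1, 6 of 1438 microglia held at least 20 UMIs of S100a8 and S100a9, and these 6 cells held 82.5% of the Lcn2 UMIs of the type. In EAE 2 the corresponding 3 of 1449 cells held 9.84%. Lcn2 in EAE microglia was at 171 CPM in EAE 1 and at 36.2 CPM in EAE 2. In contrast, EAE ECs with at least 20 such UMIs numbered 1 and 2, with 0.0314% and 0.0337% of the Lcn2 UMIs of ECs.

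Within the endothelium, the members were compared between ECs of a venous range (at least 2 UMIs of the genes Slc38a5, Nr2f2, Ephb4, Nrp2 or Tmem252, and none of the arterial genes) and of an arterial range (at least 2 UMIs of 10 arterial genes such as Bmx, Sema3g and Gkn3, and none of the venous genes). Both ranges come from the same library, so the comparison does not use the contrast of EAE with adult directly. One of the venous genes, Tmem252, is however among the leading genes of an EC cluster drawn mainly from EAE and was the gene most like Ctla2a over cell types, so the ranges are not fully independent of it. With the ranges set without Tmem252, an alternative added after seeing the data, Lcn2 (log2 difference 2.04), Lrg1 (2.05), Ctla2a (1.49) and Ctla2b (0.96) were still called higher in the venous range. Over the 7 adult, aged and EAE libraries with the library as a block, 5 members passed the test as higher in the venous range, of which 4 are read below (Lcn2, Lrg1, Ctla2a and Ctla2b), where 17.1% of 9071 genes were called, 7.86% higher and 9.24% lower (edgeR quasi-likelihood test, adjusted p under 0.05 by Benjamini-Hochberg over all genes). Lcn2 was at 6.73, 5.60 and 8.41 CPM in the venous range of adults against 0, 1.36 and 0 CPM in the arterial range. The adult ranges held only part of the 8, 95 and 64 Lcn2 UMIs of all adult ECs, so these values rest on few UMIs. In aged libraries Lcn2 was at 80.4 and 69.3 against 6.38 and 40.1 CPM, and in EAE at 832 and 921 against 162 and 61.9 CPM. The venous range was higher in 7 of 7 libraries, and the difference on the log2 scale was 2.60 ± 0.42 (SE, adjusted p = 0.00602). For Lrg1 it was 2.32 ± 0.25 (SE, adjusted p = 6.84e-06), with 281 and 301 CPM in the venous and 109 and 54.2 CPM in the arterial range of EAE. Ctla2a was at 8408 and 8512 CPM in the venous range of EAE against 849 and 1253 CPM in the arterial range (2.18 ± 0.25, SE, adjusted p = 0.00132), and Ctla2b at 228 and 238 against 64.1 and 65.8 CPM (1.33 ± 0.12, SE, adjusted p = 3.07e-10). Serpina3n entered the fit only through EAE, at 27.5 and 42.4 CPM in the venous range against 0 and 7.74 CPM, with 1 UMI in both ranges of the adult and aged libraries together, so its test is not read. Saa3 entered in the same way and did not pass, and Hp had too few counts to be tested. The P10 libraries, with 33 to 48 ECs in the arterial range, were not in the test. Lcn2 (7.83 to 21.2 CPM against 0), Ctla2a (1191 to 1785 against 168 to 300.3 CPM) and Ctla2b were higher in the venous range in all 4 of them. Lrg1 had at most 1 UMI in either range there and did not show the pattern, with 1.07 against 5.99 CPM in Juvenile 2 and 0 in both ranges of Juvenile 3. The median number of UMIs per cell was similar in the venous (2239 and 2406) and arterial (2196.5 and 2137) ranges of EAE.

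The venous range was not the highest in EAE for 3 of the members. ECs in neither range, 2307 and 2295 cells of EAE, were at 1316 and 1204 CPM of Lcn2, 638 and 576 CPM of Lrg1 and 156 and 116 CPM of Serpina3n, above the venous range in both libraries. Ctla2a (4960 and 4631 CPM) and Ctla2b (165 and 170 CPM) lay between the venous and the arterial range there. In aged libraries Lcn2 (35.5 and 34.3 CPM) and Lrg1 (50.1 and 51.7 CPM) of these cells were under the venous range. In adults the libraries differed. Lcn2 of these cells was at 0.805 CPM and Lrg1 at 8.05 CPM in Adult 1, under the venous range (6.73 and 40.4 CPM). In Adult 2 both were at 16.4 CPM, above the venous range (5.60 CPM for each), and in Adult 3 they were at 9.66 and 25.8 CPM, also above it (8.41 and 8.98 CPM). These ECs were not part of the test.

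**Figure D3:**
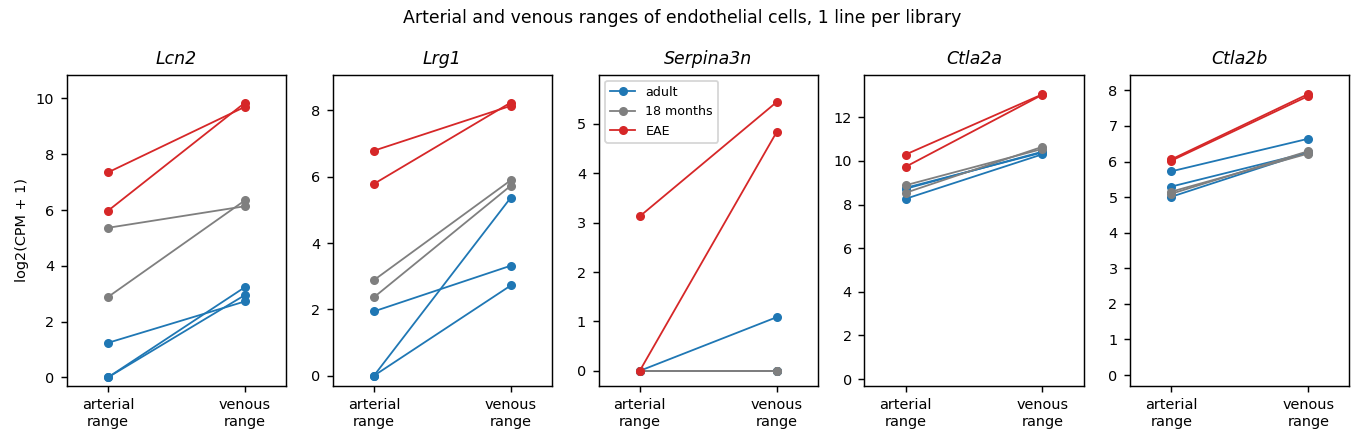
Each line joins the arterial and venous range of the ECs of 1 library, coloured by group, with the level as log2(CPM + 1) on the y axis. Lines rise towards the venous range for Lcn2, Lrg1, Ctla2a and Ctla2b in adult, aged and EAE libraries, while Serpina3n is near 0 outside of EAE.

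Clusters of ECs gave a further description, with no test. Of EAE ECs, 39.5% in each library fell into a cluster led by Ch25h, Scgb3a1 and Darc, with Lcn2 at 1790 and 1728 CPM, Lrg1 at 770 and 715 CPM, Serpina3n at 187 and 147 CPM and Ctla2a at 8351 and 7984 CPM. The larger cluster of EAE ECs (57.1% and 56.7%) had Lcn2 at 244 and 255 CPM and Ctla2a at 2644 and 2661 CPM. Lcn2 of the larger cluster was still far above adult ECs. Nearly all remaining EAE ECs fell into 2 small clusters. One, led by Fbln5 and Gkn3, held 45 and 65 cells, with Lcn2 at 1337 and 90.4 CPM, Lrg1 at 878 and 459 CPM and Ctla2a at 583 and 825 CPM. Its Lcn2 differed widely between the libraries, and both Lcn2 and Lrg1 exceeded the arterial range given above. Its Lrg1 also exceeded the venous range in both libraries, and its Lcn2 did so in EAE 1, although Gkn3 and Fbln5 are among the arterial genes, so the order of the ranges did not hold for this cluster. The other held 62 and 55 cells, with Lcn2 at 280 and 628 CPM, Lrg1 at 288 and 458 CPM and Ctla2a at 3260 and 3960 CPM. It held 74.9% and 70.9% of the ECs of Adult 2 and Adult 3, against 1.71% and 1.57% of EAE ECs, while 89.5% of those of Adult 1 fell into a further cluster. That cluster was drawn to 81.9% from Adult 1, was led by Ctnnb1 and several pseudogenes with no EC marker among its leading 10 genes, had choroid plexus as its second-best class, and the matching cluster could not be named at a resolution of 0.9. Values of Adult 1 ECs rest on it. The larger EAE cluster held 5.72%, 16.5% and 20.5% of adult ECs. ECs of EAE and of adults were thus mostly in different clusters, and the levels of all ECs set side by side above come from them. Saa3 was alike in both clusters (21.3 and 18.8 against 23.0 and 19.6 CPM), as was Hp. The members were left out of the genes used for clustering.

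Lcn2, Lrg1 and Serpina3n were found in the same single ECs more often than the product of their separate shares. At 1500 UMIs per cell, 375 of 3162 ECs of EAE 1 (11.9%, interval 10.8 to 13.04%) and 332 of 3057 ECs of EAE 2 (10.9%, 9.78 to 12.02%) held both Lcn2 and Lrg1, 2.21 and 2.30 times the products of 5.37% and 4.73%. An Lrg1 UMI was found in 40.5% and 37.6% of ECs with Lcn2, and in 9.13% and 7.77% of ECs without. Lcn2 and Serpina3n were found together 2.85 and 2.84 times as often as the product (132 and 119 cells), and Lrg1 and Serpina3n 4.15 and 4.63 times as often (120 and 110 cells). Such ratios also arise where cells differ in kind, and within the venous range alone the ratio of Lcn2 and Lrg1 was 1.82 and 1.97. In ECs without S100a8 and S100a9 it was 2.26 and 2.35. Cells are not replicates, and these shares are a description of each library.

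Saa3 and Hp did not share this pattern. Lcn2 and Saa3 were found together in 27 and 26 cells, 0.822 and 1.17 times the product, and Lcn2 and Hp in 11 and 16 cells, 0.782 and 1.26 times the product. Ctla2a, found in most ECs, left little room for a ratio above 1 (1.12 with Lcn2 in both libraries), and Lcn2 with Ctla2b was at 1.28 and 1.42. Counting the 5 members Lcn2, Lrg1, Serpina3n, Saa3 and Hp, 60.2% and 62.7% of EAE ECs held none at this depth, 13.8% and 12.8% held at least 2, and 3.95% and 3.66% at least 3. A single cell, in EAE 2, held all 5. In adults 0.504%, 1.65% and 2.09% of ECs held any of the 5, and in aged libraries 4.47% and 4.35%. Cells with both Lcn2 and Lrg1 numbered 1, 2 and 3 in the adult and 17 and 11 in the aged libraries, too few in adults for a ratio to be read.

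**Figure D4:**
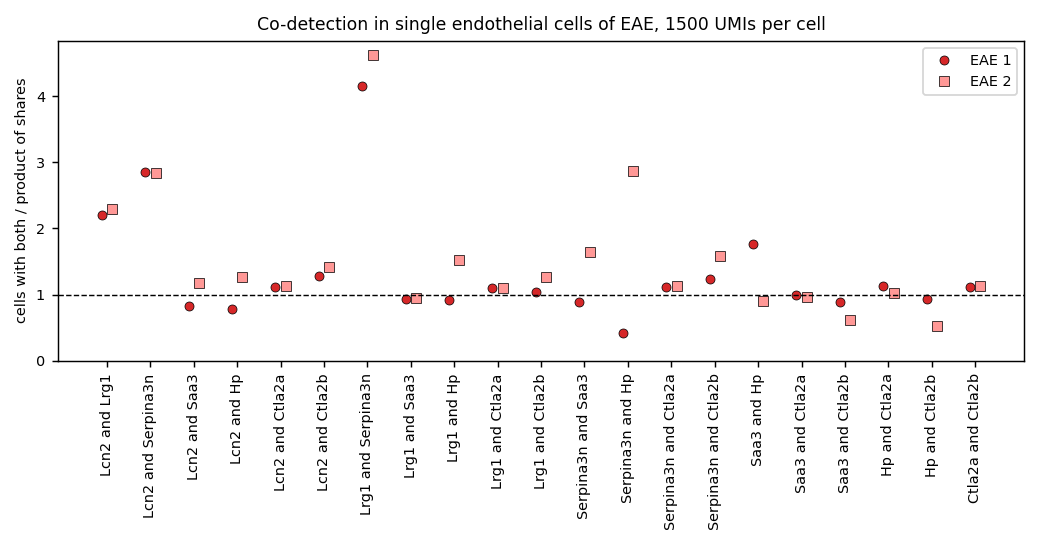
The y axis gives, for each pair of members on the x axis, the share of EAE ECs with a UMI of both divided by the product of the 2 single shares, with circles for EAE 1, squares for EAE 2 and a dashed line at 1. The pairs among Lcn2, Lrg1 and Serpina3n lie between 2.21 and 4.63, and the pairs with Ctla2a near 1, while pairs with Saa3 or Hp rest on few cells.

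The ages were compared with adults in ECs by edgeR on summed UMIs, with all groups in a single fit. The comparisons of P10 and of 18 months share the adult libraries. At 18 months, 3 of the 7 members were called (Lcn2, Lrg1 and Hp), all higher, where 9.9% of 13776 genes were called, 4.01% higher and 5.89% lower. At P10, 3 of the 7 were called (Lrg1, Ctla2a and Hp), where 48.5% of genes were called, 24.9% higher and 23.6% lower. Serpina3n and Saa3 entered this fit only through EAE, and their age tests are not read. Hp entered through EAE and aged libraries, with 208 and 64 UMIs in ECs against 8 in adults, so neither of its calls is read. Without Adult 1, Lcn2 (log2 fold change 2.05) and Lrg1 (1.57) were still called at 18 months, and Lrg1 (−2.52) and Ctla2a (0.55) at P10. All 6 calls were lost when pairs of near-identical libraries were summed and counted as 1, which leaves 2 adult and 2 juvenile units and 1 aged and 1 EAE unit.

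At 18 months, Lcn2 in ECs was at 43.8 and 43.6 CPM, above all 3 adult libraries, with means 5.64-fold apart (log2 fold change 2.34 ± 0.35, SE, adjusted p = 0.00445). Lrg1 was at 47.9 and 47.5 CPM, 3.02-fold above adults (1.57 ± 0.29, SE, adjusted p = 0.0114), and lost its call without Aged 1 (adjusted p = 0.111) or Aged 2 (adjusted p = 0.0802). Hp in ECs was at 2.77 and 5.19 CPM against at most 0.530 CPM in adults. ECs held only 3.48% and 7.02% of the Hp UMIs of the aged libraries. Neutrophils held 38.7% and 55.4%, microglia 38.1% and 14.7%, and macrophages 16.4% and 18.6%. Aged macrophages held 104 and 111 Hp UMIs in 49 and 41 cells, against 5, 13 and 22 UMIs in 10, 28 and 34 adult cells. That difference was not tested. Neutrophils numbered 37 and 44 in aged and 3 to 5 in adult libraries. Aged ECs without any UMI of S100a8 or S100a9 were at 35.1 and 38.6 CPM of Lcn2, 32.1 and 30.0 CPM of Lrg1 and 1.75 and 4.95 CPM of Hp. Lcn2 in aged T cells was at 6.71 and 6.33 CPM.

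Aged ECs held no Serpina3n UMI and a single Saa3 UMI. Ctla2a, at 1293 and 1258 CPM, lay above the 3 adult libraries but did not pass (0.30 ± 0.17, SE, adjusted p = 0.271). Ctla2b, at 66.4 and 64.1 CPM, lay within the adult range (−0.07 ± 0.15, SE, adjusted p = 0.796). The levels of Lcn2 and Lrg1 at 18 months were far under those of EAE.

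At P10, Lrg1 in ECs was at 4.35, 4.94, 1.26 and 0.969 CPM, under all adult libraries (−2.46 ± 0.37, SE, adjusted p = 0.000442). Ctla2a was at 1149, 1313, 1693 and 1653 CPM, above all adult libraries (0.61 ± 0.14, SE, adjusted p = 0.00281). Hp had no UMI in any juvenile EC against 8 in adult ECs, a level at least 3.33-fold lower. Lcn2 was at 9.09, 10.48, 12.9 and 13.6 CPM, which overlaps the adult values (0.55 ± 0.35, SE, adjusted p = 0.229), and passed only when Adult 2 was left out (adjusted p = 0.0429). Ctla2b (67.8, 71.9, 87.4 and 82.7 CPM) missed the threshold (0.30 ± 0.12, SE, adjusted p = 0.0603) and passed without Adult 1 (0.40, adjusted p = 0.00761), without Juvenile 1 (adjusted p = 0.0216) or without Juvenile 2 (adjusted p = 0.0432). Serpina3n and Saa3 had 2 UMIs each in juvenile ECs.

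**Figure D5:**
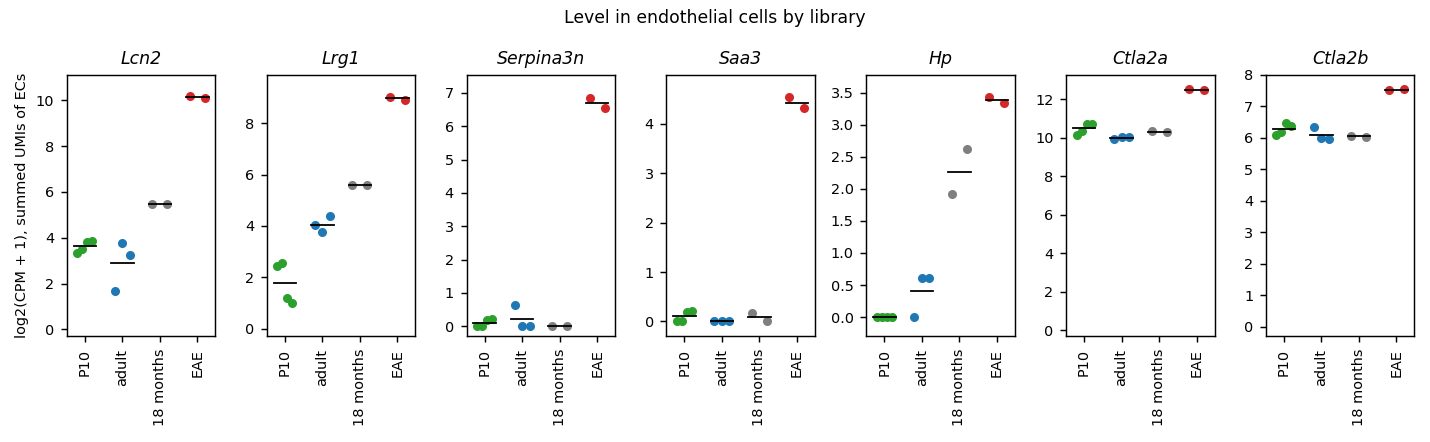
Each panel gives the level of 1 member in ECs as log2(CPM + 1), with a point for each library and a line for the group mean. The EAE libraries lie above all others for each member, the aged libraries above the adult ones for Lcn2, Lrg1, Hp and Ctla2a, and the P10 libraries under the adult ones for Lrg1.

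Outside of ECs, the ages were tested in microglia, PVMs, astrocytes, mural cells and choroid plexus only. Fibroblasts, macrophages and T cells were not tested, although most of their libraries held at least 10 cells. In the tested types, 7 calls of members were made at P10, all lower than in adults. Of all genes, 25.3% were called in microglia at P10 (12% higher, 13.3% lower), 12.5% in PVMs (5.09% higher, 7.37% lower), 11.2% in astrocytes (4.73% higher, 6.5% lower), 29% in mural cells (13.5% higher, 15.6% lower) and 60.6% in choroid plexus (29.8% higher, 30.8% lower). Beside these shares, the number of member calls is not read as a result about the members. The member calls were Ctla2a in microglia (log2 fold change −1.37), PVMs (−0.75), mural cells (−1.77) and choroid plexus (−1.77), and Ctla2b (−1.86), Lrg1 (−3.90) and Lcn2 (−1.66) in choroid plexus, the epithelium that makes the cerebrospinal fluid.

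The calls of Ctla2a outside of ECs are not read as a change of expression in those types. Its adult levels were far under those of ECs (989 to 1044 CPM), at 67.2, 82.6 and 61.9 CPM in microglia, 92.9, 91.3 and 95.1 CPM in choroid plexus and 94.1, 100.4 and 89.1 CPM in PVMs, and higher in mural cells, at 169, 98.7 and 189 CPM. Cldn5, which encodes a tight-junction protein of ECs, fell beside it, from 342, 438 and 335 CPM in adult microglia to between 101 and 125 CPM at P10, and from between 390 and 476 CPM to between 91.5 and 135 CPM in choroid plexus. In PVMs Cldn5 went from between 379 and 590 CPM to between 131 and 237 CPM, and in mural cells from between 530 and 725 CPM to between 109 and 318 CPM. Ctla2a stood at 18.5 to 19.7 UMIs per 100 UMIs of Cldn5 in adult and 21.9 to 25.8 in P10 microglia, and at 19.98 to 23.8 and 24.4 to 34.4 in choroid plexus. In PVMs it stood at 16.3 to 24.8 and 16.8 to 47.6, and in mural cells at 15.0 to 32.0 and 22.7 to 35.6. Relative to Cldn5, Ctla2a was not lower at P10 beyond the spread between libraries in any of the 4 types. In ECs the ratio was 11.7 to 13.5 in adults and 16.8 to 18.9 at P10, under those of microglia and choroid plexus at either age. What part of the Ctla2a UMIs of the 4 types came from ECs was not tested. ECs made up 26.9%, 53.8% and 55.2% of the cells of the adult and 20.1% to 25.1% of the P10 libraries. T cells stood apart, with 49.6 to 195 Ctla2a UMIs per 100 of Cldn5 in adults. In choroid plexus, Lrg1 (1.84 CPM) and Lcn2 (1.29 CPM on average in adults) had at most 16 and 12 UMIs in an adult library and more in EAE, and their calls are not read. The origin of the Ctla2b UMIs there was not tested.

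At 18 months, 4 calls were made in these types, all higher. Of all genes, 4.52% were called in microglia (2.74% higher, 1.78% lower), 4.32% in PVMs (2.43% higher, 1.89% lower), 0.432% in astrocytes (0.105% higher, 0.327% lower), 0.0341% in mural cells (0.0171% in each direction) and 2.4% in choroid plexus (1% higher, 1.4% lower). In choroid plexus, Hp (4.19 and 5.96 CPM, against 0.401 CPM in adults on average) and Lcn2 (4.89 and 10.7 CPM) were called. PVMs had higher Lcn2 (23.1 and 4.37 CPM), from 21 and 4 UMIs. Microglia had higher Lrg1 (30.1 and 12.1 CPM), but 11 of 652 and 4 of 584 cells with at least 20 S100a8 and S100a9 UMIs held 93.2% and 73.9% of its UMIs. The same cells held 98.8% and 89.9% of the Lcn2 UMIs of aged microglia. In each of the 4 cases the gene entered the fit through aged and EAE libraries, with at most 12 UMIs in an adult library, so the calls are not read. The part of neutrophil transcripts in them was not tested. With near-identical libraries summed, none of the 4 was called.

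The other genes of the acute-phase pathway were taken from 5 lists with 90 genes, of which 62 were tested in ECs. In EAE against adult, 32 were higher and 4 lower, where 32.5% of all genes were called (16.9% higher and 15.6% lower). The median log2 fold change was 0.62 over the list genes and −0.02 over all genes. The lists were drawn up with results of these data known. With near-identical libraries summed, 16 list genes were called.

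Among other acute-phase proteins, 10 of 13 tested were higher and 1 was lower. Serpina3f and Serpina3g, close relatives of Serpina3n, rose by 4.91 ± 0.42 and 3.33 ± 0.32 on the log2 scale (SE), from 0.640 to 20.4 CPM and from 2.60 to 28.4 CPM on average. The adult average of Serpina3f lay near the floor, so its call, counted above, is not read. Without the TMM scaling used for these averages, Serpina3f was at 18.4 and 19.9 CPM in EAE ECs, under T cells (24.2 and 22.9 CPM). Serpina3g was at 23.1 and 30.0 CPM, far under T cells (149 and 149.9 CPM) and macrophages (111 and 145 CPM). T cells of adults already held Serpina3g (41.4, 59.2 and 125 CPM), and how much of either gene in ECs came from other cells was not tested. Mt2, a metallothionein that binds zinc and copper, rose from 243 to 1182 CPM (2.28 ± 0.13, SE). Cd14, a co-receptor for lipopolysaccharide, rose from 19.2 to 56.7 CPM. On the same unscaled CPM, Cd14 was at 54.1 and 52.3 CPM in EAE ECs, 36.8 and 42.8 CPM in T cells and 2017 and 1944 CPM in macrophages. Cp, which encodes the ferroxidase ceruloplasmin, rose from 90.1 to 267 CPM.

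Of cytokine ligands, 2 of 7 tested were higher, with Il1b at 7.76 CPM in adult and 35.6 CPM in EAE ECs. Il1b was at 33.2 and 33.6 unscaled CPM in EAE ECs, no higher than in T cells beyond the spread between libraries (32.7 and 48.7 CPM), and at 2642 and 2630 CPM in macrophages, so it is not read as expression by ECs. Macrophages numbered 968 and 887 in EAE and 10, 28 and 34 in adult libraries. T cells numbered 834 and 789 against 41, 50 and 45, and neutrophils 171 and 163 against 3 to 5. The part of these types in the calls of these lists, those of Tnfrsf1a, Il17ra, Tnfaip3 and Bcl3 among them, was not tested. Of the receptors of these ligands, 7 of 12 were higher and none lower. Il1r1, the signalling receptor of interleukin-1, rose from 20.2 to 98.2 CPM (2.25 ± 0.14, SE), Osmr, the oncostatin M receptor, from 52.7 to 119 CPM, Tnfrsf1a, a TNF receptor, from 67.6 to 131 CPM, and Il6ra from 37.3 to 71.4 CPM. Il17ra rose from 11.0 to 21.3 CPM. Of transcription factors and feedback genes, 10 of 15 were higher and none lower, with Cebpd at 203 and 747 CPM (1.88 ± 0.17, SE), Cebpb at 44.2 and 119 CPM, Stat3 at 111 and 209 CPM, Tnfaip3, a brake on NF-κB, at 42.4 and 84.7 CPM, and Bcl3 at 18.1 and 30.9 CPM. Unscaled, Cebpb in EAE ECs (93.6 and 129.6 CPM) lay under T cells (151 and 208 CPM) and far under macrophages (2404 and 3078 CPM). T cells of adults were also above adult ECs, at 148, 533 and 485 against 35.3, 61.7 and 41.0 CPM. Cebpd (678 and 721 CPM) was far above T cells (38.1 and 48.3 CPM) and macrophages (86.4 and 81.6 CPM). The calls of Cebpb, Stat3, Tnfaip3, Bcl3 and Il17ra were lost with near-identical libraries summed.

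Of genes whose proteins interact with those of the members, 3 of 15 were higher and 3 lower, beside 16.9% and 15.6% of all genes. These counts were close to those shares and are not read as a result about this list. Ctsl, which encodes cathepsin L, rose from 245 to 354 CPM (0.53 ± 0.13, SE), and Tgfbr2, a receptor subunit for TGF-β, from 129 to 172 CPM. Slc22a17, which encodes a receptor for lipocalin-2, fell from 82.9 to 29.6 CPM (−1.45 ± 0.34, SE). Scarb1, a receptor that binds serum amyloid A, fell from 215 to 147 CPM, and Hmox1, the haem-degrading enzyme, from 34.4 to 26.5 CPM. Each of the 5 calls was lost with near-identical libraries summed. In ECs at 18 months the 62 genes gave 5 higher and 5 lower calls, beside 4.01% and 5.89% of all genes, and at P10 10 higher and 27 lower, beside 24.9% and 23.6%.

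Patterns over cell types were compared by Pearson's r of log2(CPM + 1) over 123 sums of a cell type in a library. This is a description, since sums of a library share its depth and any free RNA, which was not measured. Lcn2 and Lrg1 were the members most alike (r = 0.87). Outside the members, the genes most like Lcn2 were S100a8 (0.79), S100a9 (0.78) and Retnlg (0.77), and those most like Lrg1 were Retnlg (0.77), S100a9 (0.71) and S100a8 (0.71), all transcripts of neutrophils. Hp was most like Chi3l3 (0.88), Clec4e (0.87) and Ifitm6 (0.86), and Saa3 most like Cxcl9 (0.70), Cd300lf (0.69) and Ms4a8a (0.66). Ctla2a was most like Tmem252 (0.82), a gene of the venous range above, Pglyrp1 (0.82) and Ly6c1 (0.81). Serpina3n had weaker partners in Per2 (0.62), Mt2 (0.59) and Doc2b (0.57), and Ctla2b in Gpr160 (0.66), Gbp7 (0.66) and Tnfrsf25 (0.64).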

How the data were processed

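The authors deposited, for each library, a table of UMI counts per gene and cell barcode, made from 10x Chromium 3′ reads. The submitters' processing notes name bcl2fastq 2.19.1.403, UMI-tools 0.5.3, STAR 2.5.3a and featureCounts 1.6.1 with the build GRCm38, and the methods of the study name other versions of some of these tools. Barcodes were kept as cells where over 500 but under 6000 genes were detected and mitochondrial transcripts made up less than 25%. Libraries shared between 10 and 113 barcodes within a group, where random overlap gives between 9.3 and 91.4. Clusters were made in Seurat 5.3.0 (R 4.3.3) from 2000 variable genes, with the members left out, 12 principal components and a resolution of 0.5, and 26 of 28 clusters were named from markers. The limits for naming were set after the clusters were seen. Doublets called by Scrublet in scanpy 1.11.5 (818 cells, 1.62%) were kept, and leaving them out was an alternative.

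UMIs were summed per cell type and library (at least 10 cells) and tested with edgeR 4.0.16 (quasi-likelihood, TMM, filterByExpr, Benjamini-Hochberg over all genes, threshold 0.05). DESeq2 1.42.0, other filters, namings and replicates were alternatives. The scripts were tested on simulated data. No pair of libraries agreed within the preset limit of 1.1 in both ECs and microglia, so that each library was a replicate, and summing the closest pairs was an alternative. Same-numbered libraries of different groups did not deviate together (correlations between −0.22 and 0.36), and the numbers were not used to pair them. Random thinning, intervals and figures used numpy 2.4.6, scipy 1.17.1 and matplotlib 3.10.9 (Python 3.11.15).

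The members and lists were chosen with earlier results of these data known. Of each list, up to 5 higher and 3 lower genes were named, by fold in EAE ECs, taken from called genes that reached 20 CPM in either group and whose groups did not overlap. For each member the 3 genes with the highest r were named, among genes with at least 50 CPM in a sum and over sums of at least 20 cells.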

Additional observations from a re-analysis of the deposited data

Results flagged for a closer look

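Cells of the 2 clusters that could not be named entered no comparison. In EAE (195 and 176 cells) they held Lcn2 at 148 CPM on average (152 and 144 CPM), Lrg1 at 78.2 CPM (79.7 and 76.7 CPM) and Ctla2a at 1330.4 CPM (1392 and 1269 CPM). Serpina3n averaged 16.1 CPM, Saa3 16.1 CPM and Hp 8.64 CPM there. Adult 2 was the only adult library with at least 10 such cells, and its 14 cells held no UMI of these genes except Ctla2a, at 644 CPM.

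Ctla2a at P10 had fold changes of opposite sign between cell types: its log2 fold change against adults was 0.61 in ECs, and −1.37 in microglia, −0.75 in PVMs, −1.77 in mural cells and −1.77 in choroid plexus. The difference between the types was not tested. In microglia and choroid plexus Cldn5, a transcript of ECs, fell beside Ctla2a, as given above. What part of the Ctla2a UMIs outside of ECs came from ECs was not tested. The values outside of ECs are not read as a change of expression there.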

How the results depend on the processing

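No fold change called in the main or the alternative run reversed its direction. A change of sign in values called in neither run was not tracked. Of the counts and shares that answer a comparison, 21 alternative values moved beyond the limits set and 130 did not. Summing near-identical libraries, which leaves 6 units, gave 2730 genes called in ECs at P10 (6684 with each library a replicate), 2 at 18 months (1364), 635 in EAE (4483) and 16 list genes (36), and 0 members in ECs at P10, 0 in ECs at 18 months and 0 in other types at 18 months. DESeq2 called 2 members in other types at 18 months (edgeR 4). Leaving out 1 library gave 224 (without Aged 1) to 2195 (without Adult 1) genes in ECs at 18 months, 2414 to 4810 in EAE, 1 to 3 members in ECs at 18 months and 2 to 3 in other types. Where this left a group with a single library, that library was assumed to vary like the others. The share of EAE ECs with both Lcn2 and Lrg1, 11.4% on average, was 8.06% at 1000 UMIs, 15.6% without thinning, 5.94% with at least 2 UMIs of each gene and 8.62% without ECs holding S100a8 or S100a9, and 10.9% to 11.9% with either library alone. Levels without these ECs or without doublets and the ranges without Tmem252 were added after seeing the data.

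With the replicate number as a block, 6081 genes were called in ECs at P10, 1406 at 18 months and 4553 in EAE. The block left 3 members called in ECs at either age and gave 8 and 6 in other types. Of the named genes it ended the call of Hmox1 (adjusted p = 0.0874). With 2 EAE and 2 aged libraries of pooled mice, variation between mice was not measured. Members with few UMIs, Hp and Saa3 in ECs above all, are limited by depth.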
